A study of Mus musculus with 6 samples.

Results

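Aquaporins were examined in intestinal epithelial cells of C57BL/6 mice whose caspase-8 gene had been deleted in the gut epithelium, against floxed control mice. The 6 aquaporin genes described are Aqp1, Aqp3, Aqp4, Aqp7, Aqp8 and Aqp11, which were read by 14 probe sets of the 34945 on the array that are paired with 1 gene. All 6 arrays came from mice carrying the floxed caspase-8 gene. The 3 controls were negative for the villin-Cre transgene and the 3 deleted mice were positive for it. Cre is driven by the villin promoter, which is active in gut epithelium. Whether other cells of a preparation kept caspase-8 was not measured. The labels give neither age nor sex, and do not say which stretch of the gut was taken. The 6 genes were selected on their control and deleted array values, already known from an earlier look at these data, out of 12 measured aquaporin genes. Their differences between the groups are therefore given as a description, and counts of members past a threshold stand beside the share of all genes or probe sets, with nothing read from them. The probe set of Casp8 itself gave 10.53, 9.74 and 10.24 for the control replicates, with 9.27, 9.56 and 10.40 for the deleted ones. Its groups overlapped, with deleted replicate 3 above controls 2 and 3. The labels do not name the exons deleted, so the probe set may lie outside them, and it does not check the genotypes.

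Aquaporins are membrane channels that let water follow osmotic gradients through cells. The classical members, among them Aqp1, Aqp4 and Aqp8, carry mainly water. The aquaglyceroporins Aqp3, Aqp7 and Aqp9 also pass glycerol, and Aqp11 is an unorthodox member that lies mostly on internal membranes. In the gut, Aqp3 is known from the basolateral membrane of epithelial cells, Aqp4 from basolateral membranes of crypt and gastric parietal cells, Aqp8 from colonic surface epithelium and Aqp1 from the endothelium of capillaries and lacteals. Several of them, including Aqp1 and Aqp2, are also abundant in kidney.

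Without caspase-8, Aqp3 was higher on all 3 deleted arrays than on any control array by 3 of its 4 probe sets, and Aqp11 by 1 of its 3, where 11.0% of all probe sets were so. Aqp1 was lower on all 3 deleted arrays than on any control, as were 10.1% of all probe sets. Aqp4 averaged lower with overlapping groups, and Aqp7 and Aqp8 had no shift larger than the spread between arrays. Over the 6 genes, each by its probe set with the highest mean, the groups did not overlap in 3, with 2 higher and 1 lower. Over all 18193 genes the groups did not overlap in 22.7%, with 11.5% higher and 11.2% lower. The limma fit across all genes put 0 of the 6 genes under an adjusted p of 0.05, beside 0.775% of all genes, and that across probe sets put 1 of 14 there, beside 0.398%. Nothing is read from these counts, in genes or probe sets, since the genes were chosen with this contrast in view.

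The promoter windows of Aqp3, Aqp7 and Aqp1 are shown because the first was the aquaporin with the largest difference, the second is its direct neighbour on the chromosome with little difference, and the third was lower. Each window runs from 250 bases before to 50 bases after the RefSeq start site, on build GRCm38.p6, and capitals mark the motifs found. The windows lie at chr4:41098134-41098433 on the minus strand for Aqp3, at chr4:41048087-41048386 on the minus strand for Aqp7 (the window of its upstream start site) and at chr6:55336049-55336348 on the plus strand for Aqp1.
Aqp3: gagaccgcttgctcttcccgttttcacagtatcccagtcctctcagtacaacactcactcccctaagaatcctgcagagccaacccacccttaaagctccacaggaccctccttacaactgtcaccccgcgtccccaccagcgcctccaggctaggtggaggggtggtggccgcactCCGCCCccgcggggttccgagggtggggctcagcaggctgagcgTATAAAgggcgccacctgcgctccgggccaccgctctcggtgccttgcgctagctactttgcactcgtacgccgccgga
Aqp7: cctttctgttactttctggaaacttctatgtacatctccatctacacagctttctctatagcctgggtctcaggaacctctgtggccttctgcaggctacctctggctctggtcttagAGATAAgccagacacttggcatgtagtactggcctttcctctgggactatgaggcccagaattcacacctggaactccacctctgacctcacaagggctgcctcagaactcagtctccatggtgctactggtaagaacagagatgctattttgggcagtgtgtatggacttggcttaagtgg
Aqp1: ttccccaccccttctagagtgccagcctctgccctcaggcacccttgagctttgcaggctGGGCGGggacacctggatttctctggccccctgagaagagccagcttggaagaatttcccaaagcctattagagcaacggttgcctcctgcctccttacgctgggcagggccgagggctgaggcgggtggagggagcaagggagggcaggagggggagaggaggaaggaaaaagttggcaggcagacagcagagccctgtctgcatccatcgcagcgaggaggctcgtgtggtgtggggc

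Both strands were searched for 5 motifs that promoters often hold. The TATA box was searched as TATAAA and the GC box, to which Sp factors bind, as GGGCGG. The CCAAT box was searched as CCAAT. The site of AP-1 factors was taken as TGANTCA and that of GATA factors as AGATAA. The Aqp3 window held a TATA box whose first base lies at position −29 from the start site, and a GC box on the opposite strand at position −73. The Aqp7 window held an AGATAA at −132 and the Aqp1 window a GC box at −190. No motif was found in the windows of Aqp8, Aqp11 and the other Aqp7 start site, which are not shown. For Aqp4 there was no window. Of 32851 windows of the same length, 13.6% held a TATA box, 35.7% a GC box, 37.4% a CCAAT box, 7.81% an AP-1 site and 11.2% a GATA site. These letter matches are common and are a description of the windows.

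Aqp3, the glycerol and water channel of basolateral membranes, was read by 4 probe sets. The brightest, 1450460_at, read 7.92, 7.16 and 7.39 (log2) for controls 1, 2 and 3, in that order, against 8.63, 8.53 and 8.92 for the deleted replicates. The lowest deleted array thus lay above the highest control, and the means were 7.49 ± 0.39 and 8.69 ± 0.21 (SD, n = 3). Deleted minus control was 1.20 (SE 0.21, with a 95% confidence interval from 0.73 to 1.68), which is 2.30-fold on the linear scale. Probe set 1422007_at read 5.22, 5.13 and 5.70 on control arrays, against 6.16, 6.28 and 6.61 on deleted arrays, again without overlap, a log2 difference of 1.0 (SE 0.19).

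Probe set 1422008_a_at showed the widest gap of any aquaporin probe set. It read 4.62, 3.59 and 4.54 on control arrays, against 6.06, 6.25 and 6.54 on deleted arrays. Its control values were dim, below the medians of those arrays over all probe sets (4.87 to 4.90). The filter on dim features left this probe set out. Its log2 difference was 2.03 (SE 0.27, interval 1.4 to 2.66), or 4.09-fold. With 1 array left out the difference stayed between 1.70 (without control replicate 2) and 2.22 (without control replicate 1). The fourth, 1447727_at, was dim, with 2.94, 2.90 and 2.68 on control arrays, against 3.81, 3.03 and 2.78 on deleted arrays. Its groups overlapped, and its difference of 0.37 fell to 0.066 without deleted replicate 1. By 1450460_at, which stood for the gene, Aqp3 had the 69th highest difference of the 18193 genes. Nothing is read from this rank, since Aqp3 was chosen with the contrast known.

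With each array left out in turn, the difference of 1450460_at ran from 1.04 (without control replicate 2) to 1.42 (without control replicate 1). Since its groups did not overlap, leaving out an array could not change the sign. Control replicates 1 and 2 had the largest 3′ minus 5′ differences of the Gapdh control probe sets, a measure that grows as RNA degrades, at 0.68 and 0.93, against 0.22 in control replicate 3 and 0.21 to 0.29 on deleted arrays. Without those 2 controls the brightest Aqp3 probe sets in order stood at 1.30, 0.66 and 1.74 above the remaining control. With the Gapdh difference as a covariate they stood at 1.16, 0.70 and 1.60.

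**Figure D1:**
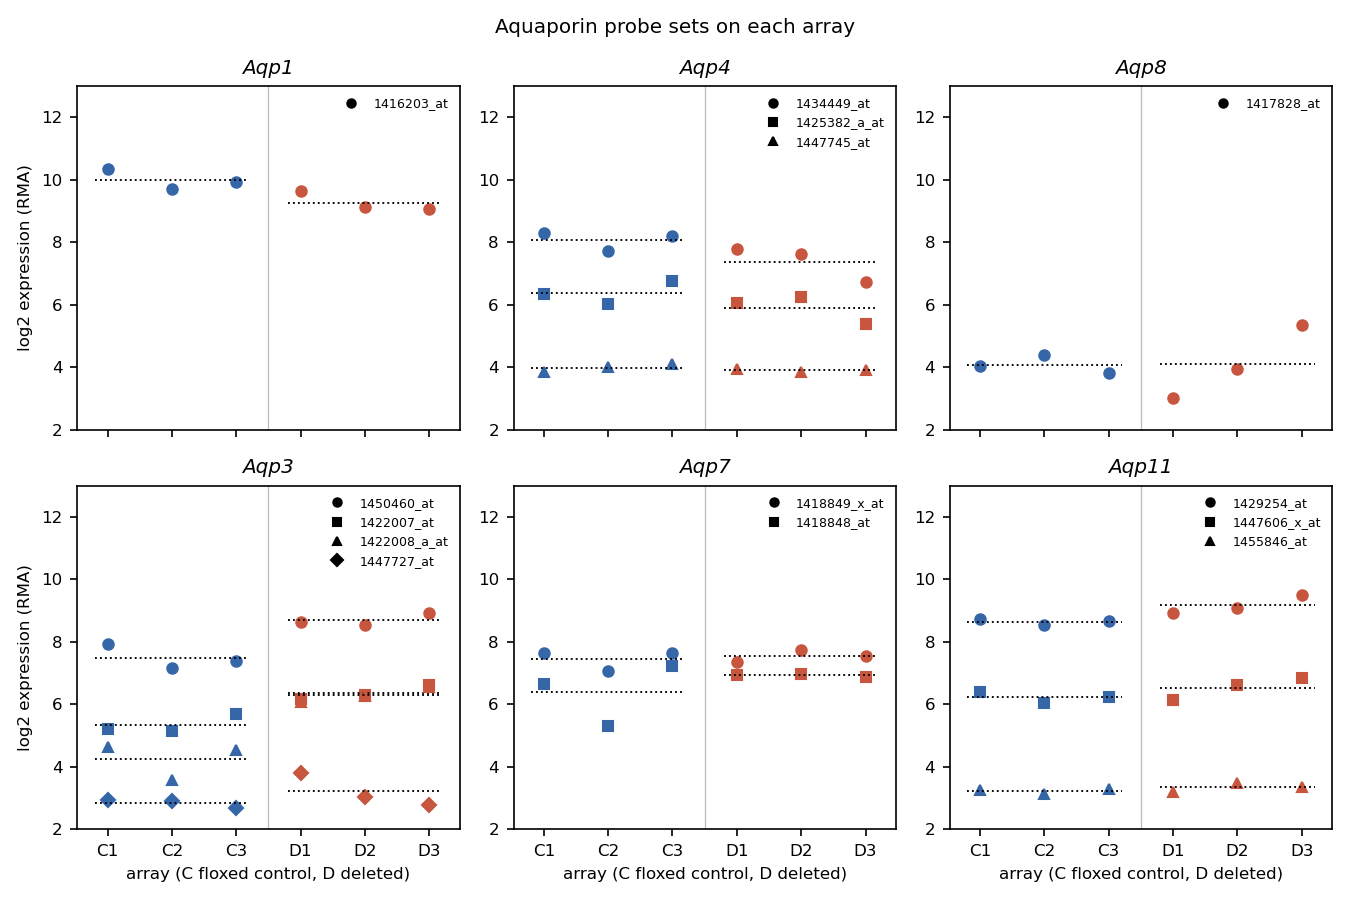
Log2 expression of the 14 probe sets of the 6 aquaporin genes on each array, with control arrays C1 to C3 in blue, deleted arrays D1 to D3 in red, a symbol per probe set and dotted lines at group means. The 3 brighter Aqp3 probe sets lie apart between the groups, as does Aqp1 in the other direction, while the deleted arrays of Aqp8 spread from 3.02 to 5.34.

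Aqp7, the glycerol channel best known from fat cells, lies next to Aqp3 among protein-coding genes of the RefSeq annotation. Its probe set 1418849_x_at read 7.63, 7.07 and 7.65 on control arrays, against 7.34, 7.72 and 7.54 on deleted arrays, a difference of 0.086 (SE 0.19, interval −0.34 to 0.51). Probe set 1418848_at read 6.64, 5.30 and 7.23 on control arrays, against 6.95, 6.95 and 6.87 on deleted arrays. The deleted arrays all lay inside the range of the controls, which was wide because control replicate 2 was low. Without that array the differences were −0.11 and −0.0087, and with the Gapdh difference as a covariate −0.20 and −0.38. The _x_at suffix marks a probe set that may also bind related transcripts.

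Genes beside the members on the chromosome were also read, the nearest 2 protein-coding genes on each side. Of 17 measured, 0 passed the limma test and 2 had an unadjusted p under 0.05, beside 16.6% of all genes. Differences of the 17 lay between −0.28 and 0.53. Beside Aqp3, Nol6 stood at 0.19 (SE 0.12) and Nfx1, beyond Aqp7, at −0.20 (SE 0.14).

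Aqp11, the unorthodox aquaporin of internal membranes, was read by 3 probe sets. The brightest, 1429254_at, read 8.74, 8.52 and 8.67 on control arrays, against 8.92, 9.07 and 9.51 on deleted arrays. The groups were apart by a margin smaller than the spread among the deleted arrays, and the difference was 0.52 (SE 0.17, interval 0.14 to 0.91), or 1.44-fold. It was 0.35 without deleted replicate 3, the highest array, and 0.64 without deleted replicate 1, the lowest of the deleted ones. Probe set 1447606_x_at read 6.38, 6.05 and 6.22 on control arrays, against 6.14, 6.63 and 6.83 on deleted arrays, with overlap and a difference of 0.31 (SE 0.19). The dim 1455846_at stood at 0.11 (SE 0.12).

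Aqp1, the water channel of endothelium, red cells and kidney tubules, had 1 probe set. It read 10.36, 9.69 and 9.93 on control arrays, against 9.63, 9.12 and 9.05 on deleted arrays. The groups were separated narrowly, by control replicate 2 and deleted replicate 1. Means were 9.99 ± 0.34 and 9.26 ± 0.31 (SD, n = 3), a log2 difference of −0.73 (SE 0.21, interval −1.22 to −0.23), or 1.65-fold lower. It ran from −0.91 without deleted replicate 1 to −0.54 without control replicate 1. The list of 18 endothelial genes stood 1.99 above its control mean on deleted replicate 1, where Aqp1 was still below the controls. On deleted replicates 2 and 3 the list stood at 0.072 and 0.14, with mean levels of 4.48 and 4.54. Aqp1 read 9.12 and 9.05 on those arrays. The part of endothelium in the Aqp1 values was not tested. In bulk RNA of this kind, fewer cells of a type and less RNA per cell cannot be told apart.

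Aqp4, the water channel of crypt and parietal cell membranes, was lower on average by its 2 brighter probe sets. Probe set 1434449_at read 8.30, 7.72 and 8.21 on control arrays, against 7.78, 7.63 and 6.71 on deleted arrays. Deleted replicate 3 was the low array and deleted replicate 1 lay above control replicate 2. The difference was −0.70 (SE 0.29, interval −1.36 to −0.04), and −0.37 without deleted replicate 3. Probe set 1425382_a_at read 6.34, 6.03 and 6.75 against 6.05, 6.23 and 5.38, a difference of −0.48 (SE 0.26), and −0.23 without deleted replicate 3. The dim 1447745_at stood at −0.076 (SE 0.12).

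Aqp8, the channel of colonic surface cells, had 1 dim probe set, and its deleted arrays scattered most among the 6 genes. It read 4.02, 4.40 and 3.81 on control arrays, against 3.02, 3.95 and 5.34 on deleted arrays. The deleted arrays enclosed the controls on both sides, with SDs of 1.17 and 0.30. The difference of 0.030 (SE 0.50, interval −1.12 to 1.18) became 0.57 without deleted replicate 1 and −0.59 without deleted replicate 3. The list of 12 colonic epithelial genes stood, relative to the control mean, at −0.42, −0.14 and −0.70 in deleted replicates 1, 2 and 3 and at 0.32, −0.39 and 0.069 in the controls. Its genes did not move together, with 5 differences above 0 and 7 below. The largest were those of Saa1 (−2.84, SE 0.91), Retnlb (−2.74, SE 0.77) and Hoxb13 (1.13, SE 0.26). The part of colonic cells in the Aqp8 values was not tested.

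**Figure D2:**
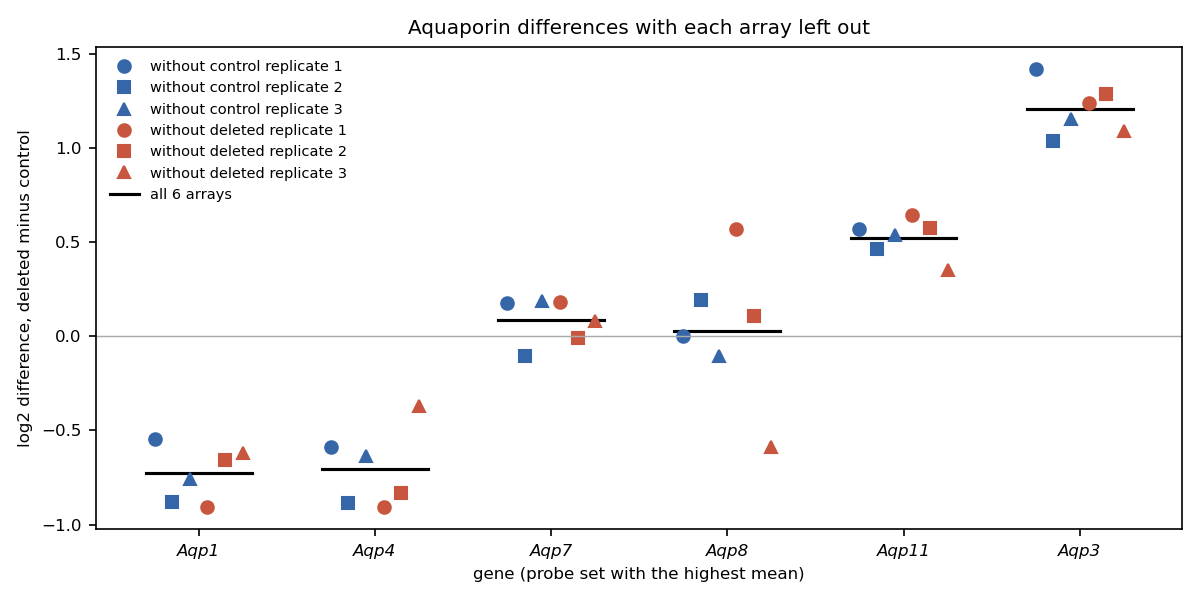
Log2 difference, deleted minus control, of each of the 6 aquaporin genes with all arrays (black line) and with each array left out (blue, a control left out; red, a deleted array left out). Aqp3 stays between 1.04 and 1.42 and Aqp1 between −0.91 and −0.54, while Aqp7 and Aqp8 lie on both sides of 0.

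The other 6 measured aquaporins, Mip, Aqp2, Aqp5, Aqp6, Aqp9 and Aqp12, were read by 11 probe sets with differences from −0.26 (Mip) to 0.22 (Aqp6). By gene and by probe set, 0 passed the limma test and 0 had an unadjusted p under 0.05, with smallest adjusted p of 0.42 and 0.446. Their groups overlapped in 11 of 11 probe sets. Aqp2, the vasopressin-regulated channel of the collecting duct, read 4.71, 4.71 and 5.0 on control arrays, against 5.42, 4.78 and 4.87 on deleted arrays, so deleted replicate 1 was its highest array. Its difference of 0.22 was 0.019 without that array. The third aquaglyceroporin, Aqp9 of liver, stood at 0.034 (SE 0.17). Aqp12, known from the pancreas, stood at 0.14 (SE 0.12), and Aqp5 of glandular epithelia at 0.046 (SE 0.16).

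**Figure D3:**
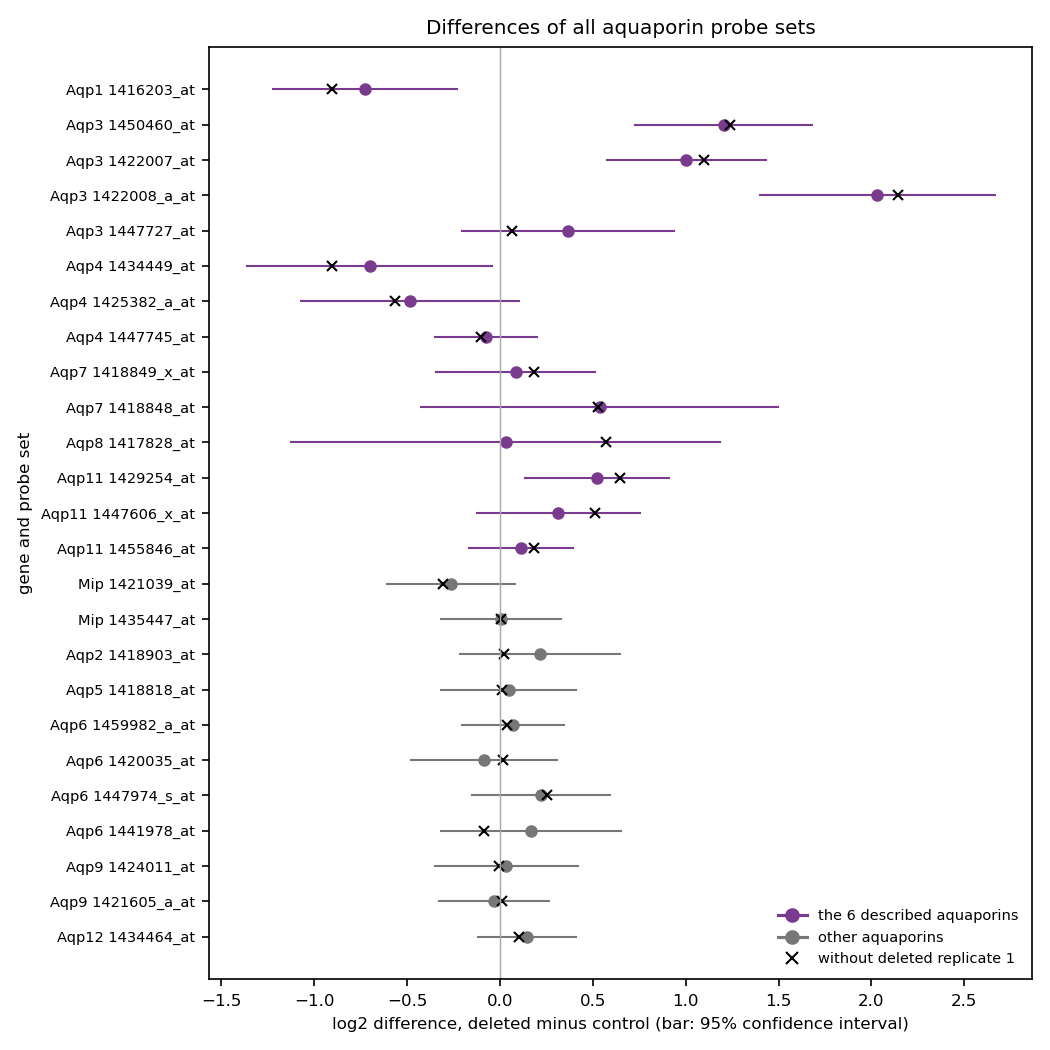
Log2 difference, deleted minus control, with 95% confidence intervals for the 14 probe sets of the 6 described aquaporins (purple) and the 11 of the others (grey), and the difference without deleted replicate 1 (cross). The largest are 3 Aqp3 probe sets between 1.0 and 2.03, and the grey points lie between −0.26 and 0.22.

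Markers of other tissues were uneven across the arrays. On deleted replicate 1, 1.16% of all genes exceeded the other arrays by over 1 log2 unit, while each of the others had 0.0055% to 0.181% of such genes. These included 5 of 24 genes of the kidney proximal tubule, 8 of 25 of the loop, distal tubule and collecting duct, 5 of 8 of podocytes and 12 of 18 of endothelium. The lists' mean levels there stood 0.90, 1.28, 1.89 and 1.99 above the control mean, while the other arrays lay between −0.20 and 0.14. Umod, the uromodulin of the thick ascending limb, read 7.87 on deleted replicate 1 and 2.69 to 3.55 elsewhere, where the lower quartile of all probe sets was 3.32 to 3.39. Emcn, an endothelial sialomucin, read 8.97 there and 2.59 to 3.50 elsewhere.

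By the probe set with the highest mean, 0 of the 6 aquaporins exceeded the other arrays by over 1 log2 unit on that array. This count takes in higher values only. Aqp1 was 0.54 above the mean of the other deleted arrays there and still below the controls. Aqp3 was 0.099 below that mean by 1450460_at, Aqp11 0.36 below it by 1429254_at and Aqp4 0.61 above it by 1434449_at. By their dim probe sets, Aqp8 was 1.62 below it, at 3.02 on its lowest array, and Aqp3 was 0.90 above it by 1447727_at. Aqp7 was 0.29 below it by 1418849_x_at. Without deleted replicate 1 the differences were −0.91 for Aqp1, 1.24 for Aqp3, −0.91 for Aqp4, 0.18 for Aqp7, 0.57 for Aqp8 and 0.64 for Aqp11.

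Control replicate 3 carried gastric surface genes. Gkn1 and Gkn2, gastrokines of stomach mucous cells, read 10.58 and 10.93 there and 4.07 to 4.47 and 3.96 to 4.29 elsewhere. The gastric list stood at 1.27 on that array and at −0.64 to −0.48 on the other 5. Of the proton pump genes of parietal cells, which hold Aqp4, Atp4a read 3.65 and Atp4b 6.12 on control replicate 3. Their ranges on the others were 3.27 to 3.96 and 6.02 to 6.5. Without control replicate 3 the difference of Aqp4 was −0.64, against −0.70 with it. The part of gastric cells in the Aqp4 values was not tested.

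Lists for further cells that hold aquaporins were read in the same way. Of 9 fat cell, 6 red blood cell, 8 enteric glia, 12 gastric, 12 pancreatic acinar and 12 colonic genes 0 passed the limma test, with 2, 0, 0, 0, 1 and 4 at an unadjusted p under 0.05, which 16.6% of all genes had. The fat cell list, of cells known for Aqp7, stood at 0.66 on deleted replicate 1 and between −0.19 and 0.22 on the others. Of its 9 genes 1, Lpl, exceeded the other arrays there by over 1 log2 unit, beside 1.16% of all genes. Lpl read 8.01 on that array and 3.41 to 4.28 elsewhere, while the fat cell gene Adipoq read 2.25 to 2.85 on all 6 arrays. The list's part in the Aqp7 values was not tested. In the 3 kidney lists and endothelium, 0 of 24, 25, 8 and 18 passed, with 6, 1, 3 and 2 at an unadjusted p under 0.05. Of 14 hepatocyte genes 1 fell, beside 0.467% of all genes. It was the serpin Serpina1b, lower by 1.37 (SE 0.15, limma adjusted p = 0.0107), at 8.37 to 8.76 on control arrays. The list did not read as 1 cell type. Its genes Cps1 and Apoc3 read 11.12 to 12.06 and 12.53 to 12.99, while the albumin gene Alb read 4.01 to 4.57 on all 6 arrays. Of 7 general epithelial genes 0 passed, also at an unadjusted p under 0.05, and Epcam, the adhesion molecule of epithelium, read 13.17 to 13.42.

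**Figure D4:**
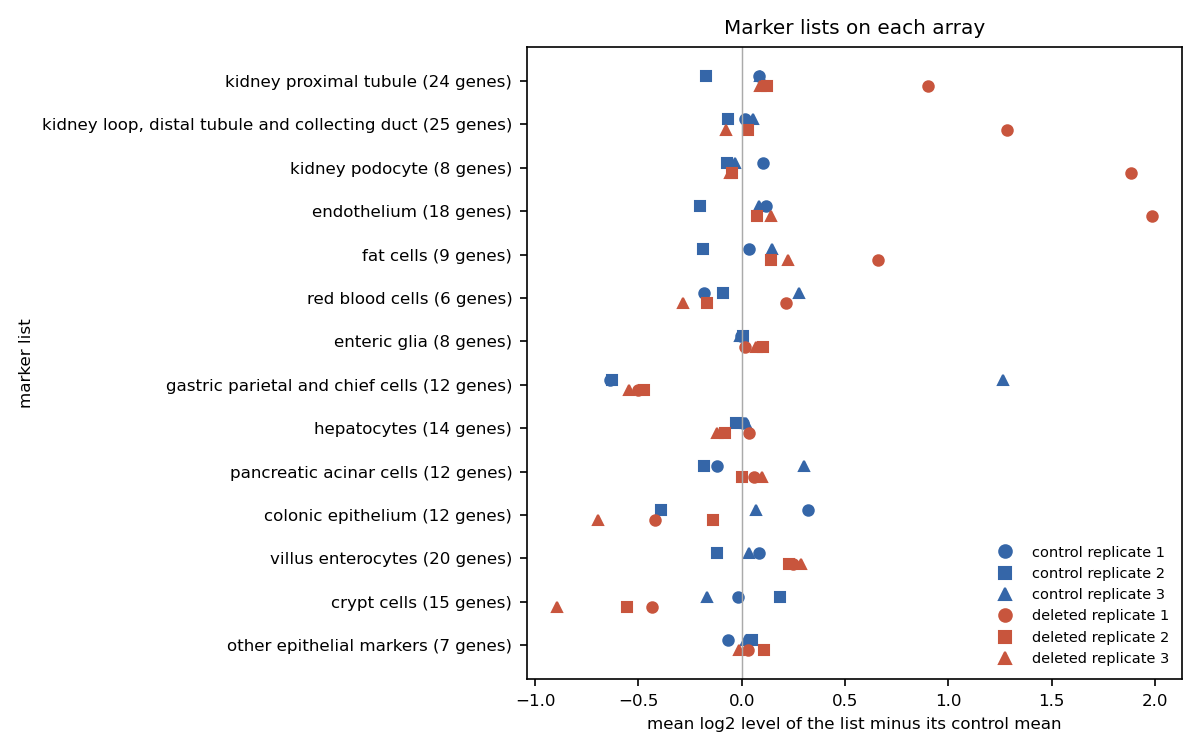
Mean log2 level of 14 marker lists on each array minus the list's control mean, with controls in blue and deleted arrays in red. Deleted replicate 1 lies at 0.90 to 1.99 for the 3 kidney lists and endothelium, and control replicate 3 at 1.27 for the gastric list.

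Lists of crypt and villus genes were read because Aqp4 is known from crypt cells. Of 15 crypt genes 2 fell, beside 0.467% of all genes, and 0 rose, with a median difference of −0.59 beside 0.022 over all genes. They were Lgr5, the stem cell receptor (−1.62, SE 0.27, limma adjusted p = 0.0488), and Sox9, a crypt transcription factor (−0.87, SE 0.12, adjusted p = 0.0263). The crypt list stood at −0.43, −0.56 and −0.90 in deleted replicates 1, 2 and 3, against −0.17 to 0.19 in the controls. Of 20 villus enterocyte genes 1 rose, beside 0.308% of all genes, and 0 fell, with a median of 0.21. It was Rbp2, which binds retinol in enterocytes (0.97, SE 0.14, adjusted p = 0.0313). The villus list stood at 0.23 to 0.29 on deleted arrays and −0.12 to 0.084 in the controls. The 3 calls were kept without deleted replicate 1, when Smoc2 also fell, which made 3 of 15 crypt genes, beside 0.835% of all genes. Of these and the Serpina1b call, 4, 4 and 3 of 4 were lost without control replicates 1, 2 and 3, and 3 and 4 without deleted replicates 2 and 3. These lists' part in the aquaporin values was not tested.

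Genes for salt and fluid transport in the gut and for its regulation were read from a list of 32. By limma 0 passed, and the median was −0.025. At an unadjusted p under 0.05, 3 were higher and 8 lower, beside 16.6% of all genes in either direction. The largest differences were those of Slc14a1, a urea transporter (−1.25, SE 0.22, adjusted p = 0.0519), Hsd11b2, which shields the mineralocorticoid receptor from glucocorticoids (−0.92, SE 0.24, adjusted p = 0.128), and Kcnq1, a basolateral potassium channel (−0.89, SE 0.19, adjusted p = 0.0833). Slc14a1 was dim, at 5.42, 4.98 and 4.85 on control arrays, against 4.25, 3.55 and 3.68 on deleted arrays. The medians of the deleted arrays over all probe sets were 4.85 to 4.91. Cftr, the chloride channel of fluid secretion, is named after its values were seen. It read 9.46, 9.71 and 9.50 on control arrays, against 8.89, 8.92 and 8.85 on deleted arrays (−0.67, SE 0.12, adjusted p = 0.0504), without overlap. The groups did not overlap in 4 genes that were higher and 7 that were lower, of 32, beside 11.5% and 11.2% of all genes. Without deleted replicate 1, the array with the kidney and endothelial markers, 3 of the 32 genes fell by limma, beside 0.835% of all genes. They were Slc14a1 (−1.47, adjusted p = 0.0233), Kcnq1 (−1.08, adjusted p = 0.0286) and Hsd11b2 (−1.18, adjusted p = 0.0343), while Cftr stood at −0.67 (adjusted p = 0.0687).

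Glycerol handling was read because Aqp3, Aqp7 and Aqp9 pass glycerol. Of 19 genes 0 passed, with a median of 0.20. There were 6 higher and 3 lower at an unadjusted p under 0.05, beside 16.6% of all genes in either direction. Mgll, the monoglyceride lipase, stood at −0.93 (SE 0.39), and at −0.54 without deleted replicate 2. Without deleted replicate 1 it fell by limma (−1.42, adjusted p = 0.0331). It was the 1 gene of the 19 to pass there, where 0.835% of all genes fell. Others were Abhd5, the activator of triglyceride lipase, at 0.68 (SE 0.26) and Gpam, which starts glycerolipid synthesis, at −0.65 (SE 0.17). The list for aquaporin regulation held 20 measured genes, of which 0 passed, with a median of 0.061. Of them 3 were higher and 2 lower at an unadjusted p under 0.05, beside the same 16.6%. Foxa2, an endodermal transcription factor, stood at −0.80 (SE 0.18, adjusted p = 0.0932), Gata4, a factor of the proximal small intestine, at 0.60 (SE 0.11, adjusted p = 0.0519), and Sntb1, a syntrophin of the scaffold that can hold Aqp4, at −0.56 (SE 0.22). Without deleted replicate 1 Sntb1 alone of these 20 passed (−0.82, limma adjusted p = 0.0498), where 0.835% of all genes fell. Of 15 osmotic stress genes 0 passed, with a median of 0.086 and 2 higher at an unadjusted p under 0.05, again beside 16.6%. Lrrc8a, a subunit of the volume-regulated anion channel, stood at 0.51 (SE 0.15) and the kinase Sgk1 at 0.42 (SE 0.22).

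Genes with the most similar array profile were found for the 4 members whose values spanned at least 1 log2 unit. Likeness was the root mean square difference over the 6 arrays between log2 values centred on each gene's mean. Nearest to Aqp3 were Aadac, an arylacetamide deacetylase, at 0.19, and Tlcd2 and Mcoln3, each at 0.20, and just 1 gene lay within 0.2. Nearest to Aqp1 were Efna4 and Tac1, each at 0.12, and Tmem218 at 0.13, with 35 genes within 0.2. Nearest to Aqp4 were Ptprd at 0.11, Cubn, the intestinal and renal receptor cubilin, at 0.13 and the sulphate transporter Slc13a1 at 0.16, with 16 within 0.2. Nearest to Aqp8 were Mtus2, Rdh16f2 and Trat1 at 0.25, 0.28 and 0.31, with 0 within 0.2. With 6 arrays and 18193 genes, close profiles arise readily, and nothing on shared control is read from them.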

How the data were processed

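Gene expression was measured on 6 Affymetrix arrays, 1 per mouse, 3 per group, with groups and replicate numbers from the sample titles. Per the submitters' processing notes, what the authors deposited are log2 expression values made by RMA, a robust average over the probes of a probe set. Which version and which settings were used is not given in the sources used here. RMA understates changes of dim genes. No detection calls are used, and 3 arrays per group limit the precision.

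Probe sets were named from the platform annotation, which can be old: 34945 had 1 gene, 932 had several and 9160 had none. The probe set with the highest mean stood for its gene, which gave 18193 genes. Promoter windows came from the RefSeq table for GRCm38.p6, which held 5 of the 6 members. No genome build of the array is named in the sources used here.

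Deleted minus control was fitted with limma 3.58.1 in R 4.3.3 (lmFit and eBayes, two-sided, group only), separately over genes and over probe sets, with Benjamini-Hochberg adjustment over all of them and a threshold of 0.05. The spread behind these p-values is that between arrays of separate animals. The steps were tested on simulated data, in 10 draws with 200 changed genes each. Changes of 1 and 2 log2 units were called in 67.5% and 93.9% of cases, and 4.36% of calls were false. The simulated arrays had independent normal spread and none held RNA of another tissue, so such arrays were not tested. Tables and plots were made with Python 3.11.15, pandas 2.3.3, numpy 2.4.6 and matplotlib 3.10.9.

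The members, the 19 gene lists (315 entries, 282 measured) and the tests were chosen with earlier results of these data known. The text names all aquaporins, the 3 nearest profiles of a member, and from each list genes that passed and up to 3 with the largest differences. Other genes are named as markers or after their values were seen. Alternatives were a replicate block, a filter on dim features, the mean over probe sets, leaving out _x_at and _s_at probe sets, a trend with a robust prior, median centring, repeated quantile normalization, array weights, the Gapdh covariate, and leaving out arrays.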

Additional observations from a re-analysis of the deposited data

How the results depend on the processing

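Whether the replicate numbers of the titles pair the arrays was not settled. The correlations of same-numbered deviations from the group means were 0.0774, 0.1046 and −0.0074. Those of differently numbered arrays ran from −0.1281 to 0.012. With the number as a replicate block 113 genes and 108 probe sets passed, beside 141 and 139 without it. These counts became 298 and 362 without dim features, 252 and 250 with a trend and robust prior, 1406 and 1631 with array weights, 36 and 23 with the Gapdh difference as a covariate, and 5 and 3 without control replicates 1 and 2. With 1 array left out they ran from 18 to 251 genes and from 19 to 291 probe sets. For genes they were 23, 31 and 56 without control replicates 1, 2 and 3 and 251, 23 and 18 without deleted replicates 1, 2 and 3. Of the calls of Lgr5, Sox9, Rbp2 and Serpina1b, 4 were lost with the Gapdh covariate, 4 without control replicates 1 and 2, 2 with the block and 2 with the mean over probe sets. Slc14a1, at an adjusted p of 0.0519 with the settings of the report, passed with the replicate block (adjusted p = 0.0242), median centring (0.0399), a trend and robust prior (0.0292), repeated quantile normalization (0.0425), array weights and the mean over probe sets (0.0285), and over all settings its limma adjusted p ran from 0.00591 to 0.695. Aqp3 moved by more than the spread between arrays to 0.88 with array weights, and Aqp7 to −0.20 with the Gapdh covariate and to 0.54 without _x_at probe sets.

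Without deleted replicate 1 the sign turned for Umod (−0.45, and up to 2.13 with other arrays left out), Podxl (−0.66, up to 2.25), Emcn (−0.12, up to 3.01) and Lpl (−0.40, up to 1.90), genes high on that array. Without control replicate 3 it turned for Gkn1 (0.084, and down to −3.13 with other arrays left out), Gkn2 (0.071, down to −3.41), Tff1 (0.089, down to −2.03) and Cela2a (0.10, down to −0.40). Sgk1 stood at −0.029 with the Gapdh covariate and −0.012 without control replicates 1 and 2. None of these genes passed the test with all arrays, and the causes were not tested. Dim probe sets, such as that of Aqp8, limit what can be said of their genes.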
